A study of Homo sapiens with 32 samples.

Results

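The 10 genes described here encode the U1, U2 and U5 small nuclear RNAs (snRNAs) of the major spliceosome and the U11 and U12 snRNAs of the minor spliceosome. They were chosen by gene name: RNU1-1 and RNVU1-7 for U1, RNU2-1 for U2, RNU5A-1, RNU5B-1, RNU5D-1, RNU5E-1 and RNU5F-1 for U5, and RNU11 and RNU12. Their exons hold 1388 bases on the strand of each gene, and base counts of identical genomic copies were summed. Of these, 1263 bases had at least 30 reads in all 32 libraries, among 309717 such positions of any RNA, which lay in 906 annotated genes and outside them.

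The libraries came from Hep3B cells, a line from a human hepatocellular carcinoma, and were made to map N4-acetylcytidine (ac4C), which the acetyltransferase NAT10 writes on RNA. Sodium cyanoborohydride (NaCNBH3) reduces ac4C, and the reduced base is read partly as T, so that C-to-T changes were compared with a mock fraction of the same RNA. Each of 8 genotypes had mock and NaCNBH3 fractions in 2 biological replicates, and every culture, the parental cells included, received 100 nM dTAGV1, a degrader, for 24 h. Wildtype cells were parental. FKBP cells carried the degron tag on endogenous NAT10 and were not transduced. NAT10(-) cells were degron cells that received a control plasmid, and NAT10-WT cells were degron cells with an added unmutated NAT10. K290A and E389L cells received NAT10 with a substitution in the RNA helicase domain, H537A and G641E cells with a substitution in the acetyltransferase domain. Transduced cells were selected with blasticidin, and the replacement NAT10 came from an added construct. Wildtype and NAT10-WT, which keep unmutated NAT10 under the degrader, are called NAT10-competent below and the other 6 genotypes NAT10-deficient.

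The spliceosome removes introns with a set of snRNAs, each packed with proteins into a ribonucleoprotein. U1 pairs with the 5′ splice site, U2 with the branch point, and a loop of U5 holds the exon ends. U11 and U12 take the places of U1 and U2 on a rare class of introns. These snRNAs carry many pseudouridines and 2′-O-methylated bases, most of them placed by small Cajal body RNAs (scaRNAs) that pair with the snRNA.

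The libraries held between 400119 and 3797803 positions, with 1209.9 to 1732 megabases (Mb) of base calls. Of 13 hepatocyte markers, 8 to 13 had positions in a library. Albumin was covered at 2033 to 2110 positions in every library, whereas alpha-fetoprotein (AFP) ran from 0 to 2004. Of 7 markers of other cell types at most 1 had positions, from 0 to 1480 in a library, with the most in K290A replicate 1. No position of NAT10 reached 30 reads in Wildtype, FKBP, NAT10(-) or E389L libraries. NAT10-WT libraries had 518 to 1082 such positions, K290A libraries 1441 to 3126, H537A libraries 615 to 2758 and G641E libraries 2765 to 3028. The E389L cells also received a NAT10 construct, so that these counts do not bear out the label of the E389L libraries. The reason was not tested.

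The U1, U11 and U12 sequences carry positions to which the results below refer. Capitals mark bases with a mean mismatch share over 1% and the middle cytosine of each CCG, the triplet in which NAT10 is known to acetylate. Positions are counted from 1 at the 5′ end of the RNA. The bases are those of GRCh38, written with T, and the genes lie at chr1:16514122-16514285 on the minus strand (RNU1-1), chr1:28648600-28648733 on the plus strand (RNU11) and chr22:42615244-42615393 on the plus strand (RNU12). All are single-exon genes of noncoding RNA.
RNU1-1: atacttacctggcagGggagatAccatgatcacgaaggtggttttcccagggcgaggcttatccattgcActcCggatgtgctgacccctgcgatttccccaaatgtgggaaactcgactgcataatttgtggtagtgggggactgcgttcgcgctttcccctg
RNU11: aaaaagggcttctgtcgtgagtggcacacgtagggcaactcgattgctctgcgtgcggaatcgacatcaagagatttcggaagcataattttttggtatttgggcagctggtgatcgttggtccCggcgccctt
RNU12: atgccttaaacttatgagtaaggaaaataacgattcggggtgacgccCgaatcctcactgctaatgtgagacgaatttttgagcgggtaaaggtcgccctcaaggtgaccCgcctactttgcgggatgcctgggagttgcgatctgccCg

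RNVU1-7 (chr1:148038753-148038916, minus strand) differs from RNU1-1 at 1 of 164 bases, T150C. In the U2 sequence below (RNU2-1, chr17:43233787-43233977, minus strand) the capitals mark bases known to be pseudouridine or 2′-O-methylated, which cluster in the 5′ part that pairs with the branch point and with U6.
RNU2-1: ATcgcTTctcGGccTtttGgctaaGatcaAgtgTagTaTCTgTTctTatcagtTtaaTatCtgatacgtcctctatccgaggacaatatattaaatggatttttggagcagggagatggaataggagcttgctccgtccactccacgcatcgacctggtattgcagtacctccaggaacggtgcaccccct

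Coverage set what could be measured in each gene. The pileup behind the files stopped near 20000 reads a position, and RNU1-1, RNVU1-7, RNU5A-1, RNU5B-1 and RNU5E-1 reached that ceiling in all 32 libraries. RNU11 reached it in 8 and RNU12 in 1. RNU5D-1 never did, with a median depth of 1252 to 10344 reads in a library, nor did RNU5F-1, the least covered U5 gene, with 207 to 777. RNU1-1 had 9 identical copies, whose summed depth reached 179043 reads. RNU2-1 had 11 identical copies, of which 5 were covered, and its annotated locus had no position with 30 reads. Over the copies of RNU2-1, 66 bases, 41 to 106, had 30 reads in every library, and the highest summed depth was 1732. An aligner can split reads between near-identical copies, so that the U1 and U2 mismatch shares are uncertain. Whether reads were placed on the wrong U5 gene was not tested, and the U5 shares and depths by gene carry that limit. If reads were kept at several places, summed copies count a read more than once and their Fisher p-values are too small, which was not tested.

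Along the snRNAs nearly all bases were read as in the genome. Of 1263 bases, 15 had a mean mismatch share over 1%, or 1.19%, against 3442 of 309717 positions of any RNA, or 1.11%. The median mismatch share of a gene lay between 0.0116% in RNU2-1 and 0.0452% in RNU1-1. RNU1-1 had 4 bases over 1%, RNU5D-1 had 3, RNVU1-7, RNU5E-1 and RNU5F-1 had 2 each, RNU5A-1 and RNU5B-1 had 1 each, and RNU2-1, RNU11 and RNU12 had none among bases covered in all libraries.

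**Figure D1:**
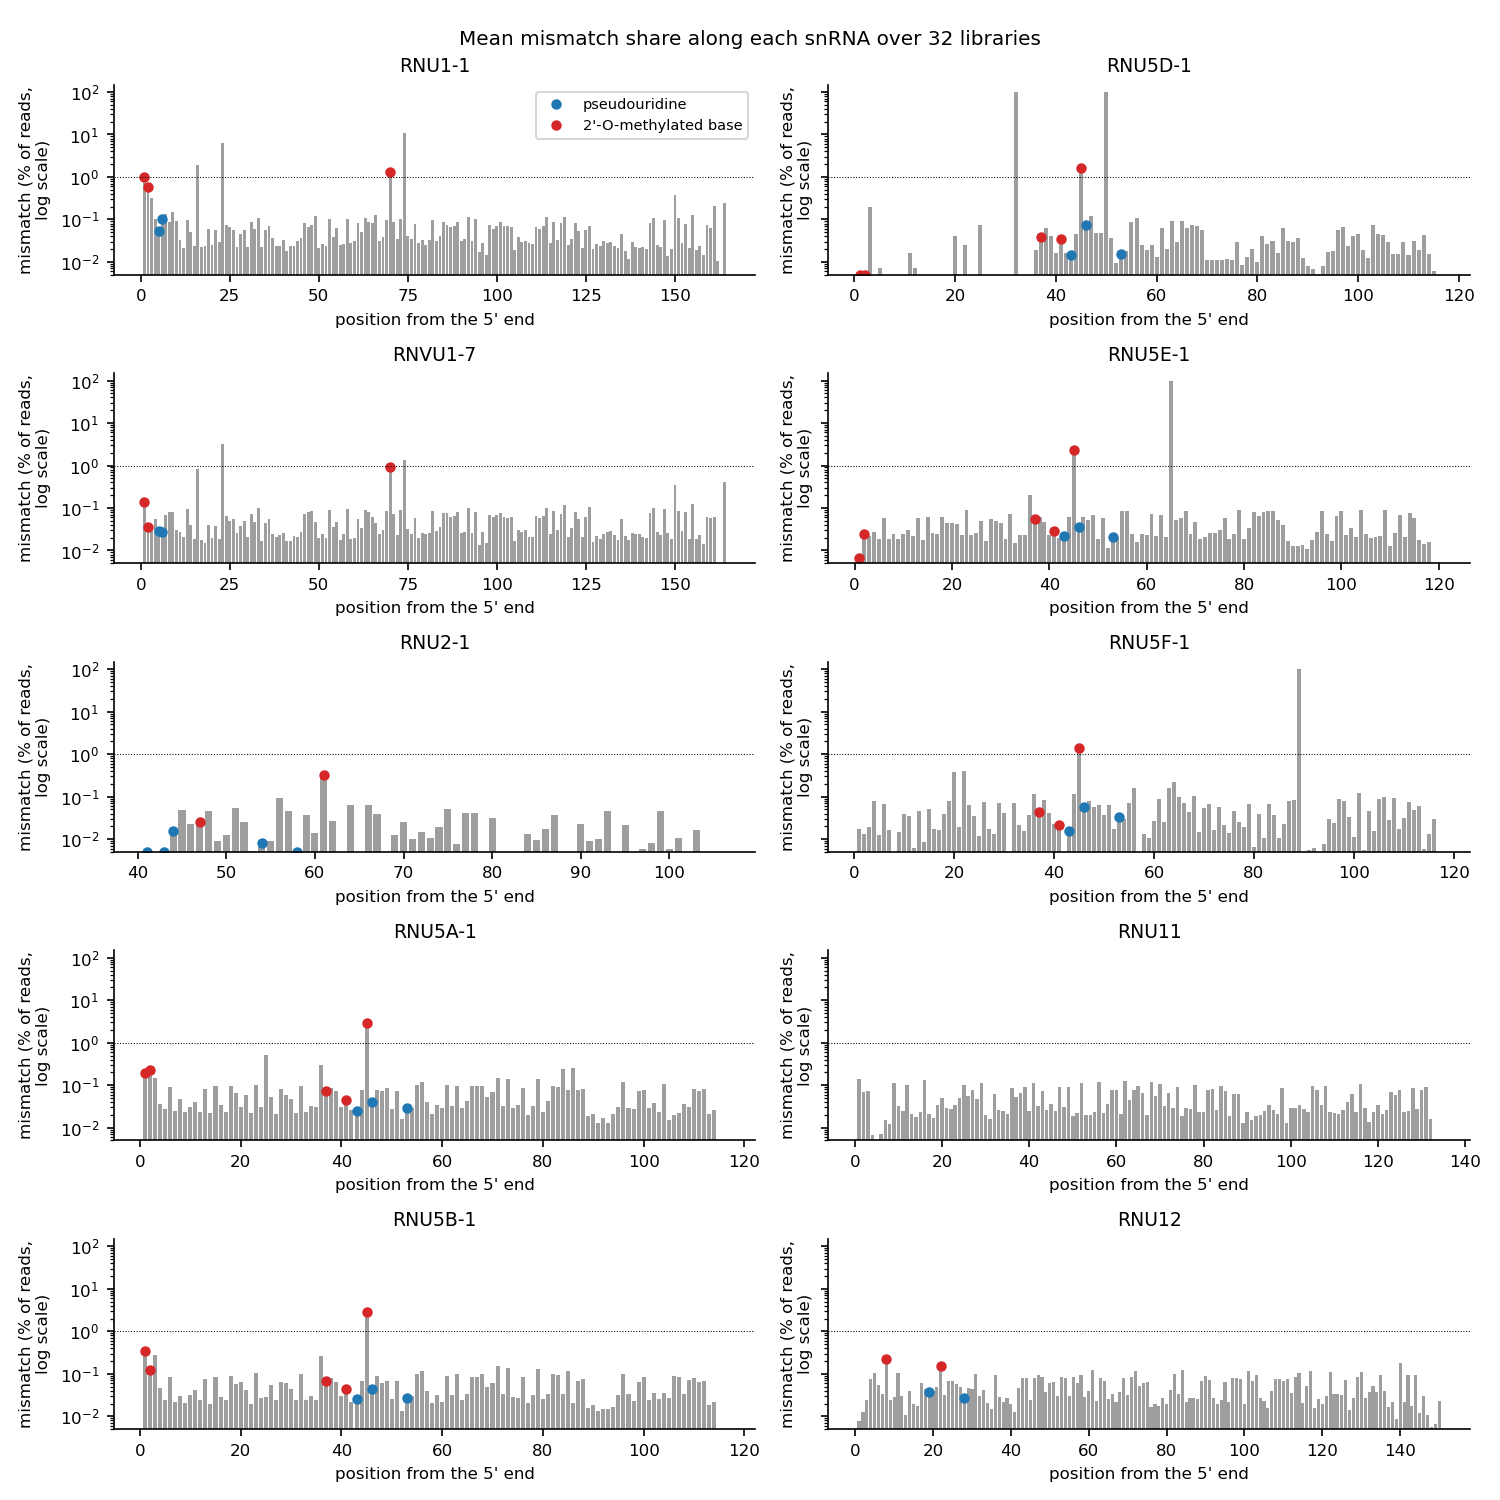
Mean share of reads with a mismatch (percent, log scale) at each base covered in all 32 libraries, by position from the 5′ end of each snRNA. Grey bars are bases, red points 2′-O-methylated bases, blue points pseudouridines, and the dotted line 1%. Position 45 stands out in all 5 U5 genes, and 3 bases of RNU5D-1, 2 of RNU5E-1 and 2 of RNU5F-1 pass 1%.

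Among the known modified bases, mismatches were most frequent at 2′-O-methylated C, where 6 bases had a median of 1.96% and a range of 0.314% to 2.98%, and 5 of them were over 1%. These 5 were the same position, C45, in the 5 U5 genes, so that the median rests on that position. The other, C61 of RNU2-1, had 0.314%, below the 2′-O-methylated A70 of RNU1-1 at 1.34%. The other 265 cytosines had a median of 0.0848%, and 3 of them were over 1%. At the 9 listed 2′-O-methylated A the median was 0.224% (unlisted A, 0.0631%), at 6 listed G 0.0607% (unlisted G, 0.0253%), and at 12 listed U 0.0351% (unlisted U, 0.0207%). The 26 pseudouridines had a median of 0.0269% and a highest share of 0.102%. These are descriptions over bases of related genes, with no test.

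In U5 the 2′-O-methylated cytosine was position 45, in the loop that contacts the exons. It was read as T in every library of all 5 genes. The C45T share was highest in RNU5A-1, where it ran from 1.96% through a median of 2.32% to 2.62% (mean 2.33% ± 0.167, SD, n = 32). RNU5B-1 had 1.77% to 2.703% (2.25% ± 0.218) and RNU5E-1 1.50% to 2.13% (1.77% ± 0.146). The range of RNU5A-1 lay within that of RNU5B-1, and the range of RNU5E-1 overlapped both at their lower ends. RNU5D-1 followed with 1.02% to 1.98% (1.46% ± 0.261), and RNU5F-1 was the lowest on average and the most spread at 0.474% to 2.47% (1.10% ± 0.414). Each neighbour in this order overlapped the next. The same base was also read as A, at a mean of 0.638% in RNU5A-1 and 0.166% in RNU5D-1. NaCNBH3 did not change C45T past the threshold in any U5 gene: the smallest adjusted p of limma was 0.129, in RNU5E-1.

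**Figure D2:**
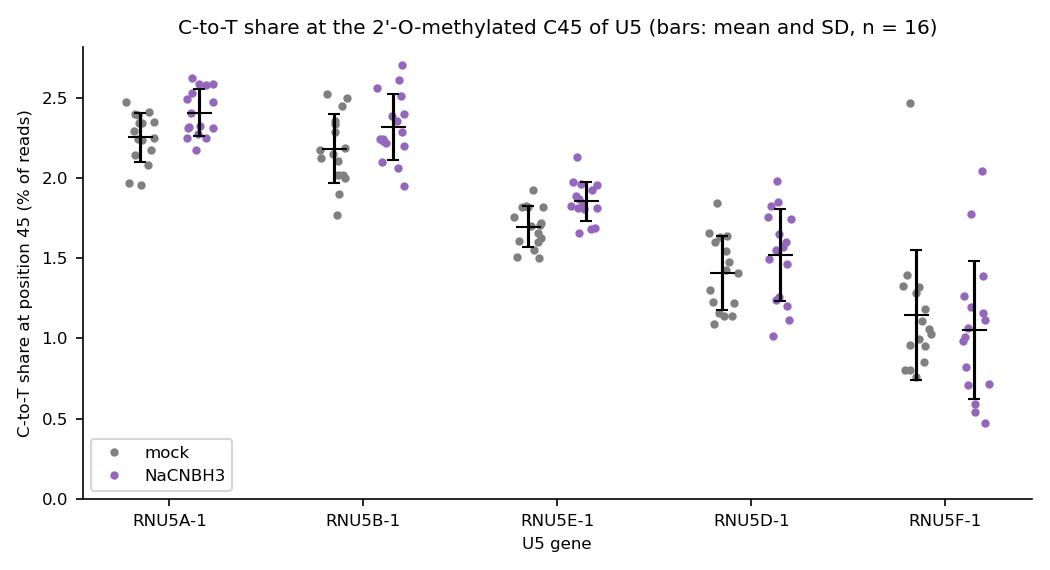
Share of reads with T at position 45 of 5 U5 genes (percent of reads) in mock and NaCNBH3 libraries. Points are libraries, and lines give the mean and SD of 16. RNU5A-1 and RNU5B-1 sit at 1.77% or above throughout, and RNU5F-1 is the lowest on average.

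In U1 the 2′-O-methylated A70, which lies in the loop bound by the protein SNRPA, was read as T. A70T of RNU1-1 ran from 1.06% through a median of 1.29% to 1.65% (mean 1.28% ± 0.150, SD, n = 32). In RNVU1-7 the mean was lower, at 0.873% ± 0.181. The first bases of RNU1-1, next to the cap, had mismatch shares of 0.998% at A1 and 0.593% at the U beside it, and the pseudouridines at positions 5 and 6, which pair with the 5′ splice site, had 0.0535% and 0.102%. In U12, the 2′-O-methylated A8 had 0.224% and G22 0.149%.

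In U2 the modified bases lay mostly where coverage was thin. C61 of RNU2-1 had 0.314% over all 32 libraries. C40T had a mean of 18.2% ± 7.62 in the 26 libraries with 30 reads there and A30T 8.77% in 27. T18C, at a base that is not listed as modified, had 15.8% in 28. RNU2-2P (chr11:62841619-62841809, minus strand), which is not one of the 10 genes but an expressed U2 gene that differs from RNU2-1 at 8 bases, had at least 1803 reads where RNU2-1 was covered in all libraries. On RNU2-2P, A30T was 2.11% and C40T 1.95%. At T170C, a base that tells the U2 genes apart, the reads placed on RNU2-2P carried the C of RNU2-1 in 59.1% to 67.5%, with a mean of 61.9%. At the other 7 such bases they carried it in at most 0.180% on average.

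Some U1 bases without a listed modification were mixed. C74T of RNU1-1 was the largest, from 7.09% to 12.6% with a mean of 10.7% ± 1.27 (SD, n = 32). A23G of RNU1-1 had a mean of 6.12% ± 0.519 and G16A 1.94% ± 0.434. At the annotated copy alone, the means were 6.86%, 6.49% and 1.53%. RNVU1-7 had A23G at 3.20% ± 1.21 and C74T at 1.33% ± 0.517. The 25 bases around C74T with the T match 6 places in GRCh38, among them the U1 genes RNVU1-33 and RNU1-18P. With the read base at G16A or A23G, no place matches over 25 bases. Among 23 U1 genes of 164 bases within 20 differences of RNU1-1, only RNU1-63P has A at position 16 and none has G at position 23. In RNU5A-1, C25T had 0.516% ± 0.211.

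In 3 of the U5 genes, 4 bases were read almost wholly as another base. RNU5D-1 had C32T in 98.3% to 99.8% of reads (mean 99.3%) and G50A in the same range (mean 99.3%). RNU5E-1 had A65G in 99.94% to 99.99% of reads, and RNU5F-1 had A89G in 99.4% to 100%. Whether they are base differences of Hep3B DNA or another change was not tested, since no DNA was sequenced.

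NaCNBH3 raised certain base changes over the snRNAs as a whole. Over the 1243 bases with a mismatch share under 0.5%, which hold 262 cytosines and 283 adenines, the C-to-T share was 0.0443% to 0.0600% in mock libraries (mean 0.0498% ± 0.0042, SD, n = 16) and 0.0816% to 0.129% in NaCNBH3 libraries (0.101% ± 0.0176, n = 16). The mock and NaCNBH3 ranges did not overlap, and the mean was 2.02 times higher after NaCNBH3, in 16 of 16 pairs of fractions (exact two-sided sign-flip test, p = 3.05e-05, the smallest it can give, adjusted over 12 changes p = 0.000122). The A-to-T share rose further, from 0.00920% ± 0.00129 to 0.0561% ± 0.0122 (n = 16 each), 6.10 times and in 16 of 16 pairs (same exact p). A to G rose 1.56 times in 16 of 16 pairs. Another 5 changes also passed with smaller rises, from 1.08 times for G to A and G to T, 1.09 for C to A and 1.10 for T to A to 1.13 for A to C, in 11 to 15 of 16 pairs (adjusted p 0.000549 to 0.0262). C to G, G to C, T to C and T to G did not pass. T to C was 0.0227% and 0.0226%, higher in 7 of 16 pairs (exact p = 0.71).

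**Figure D3:**
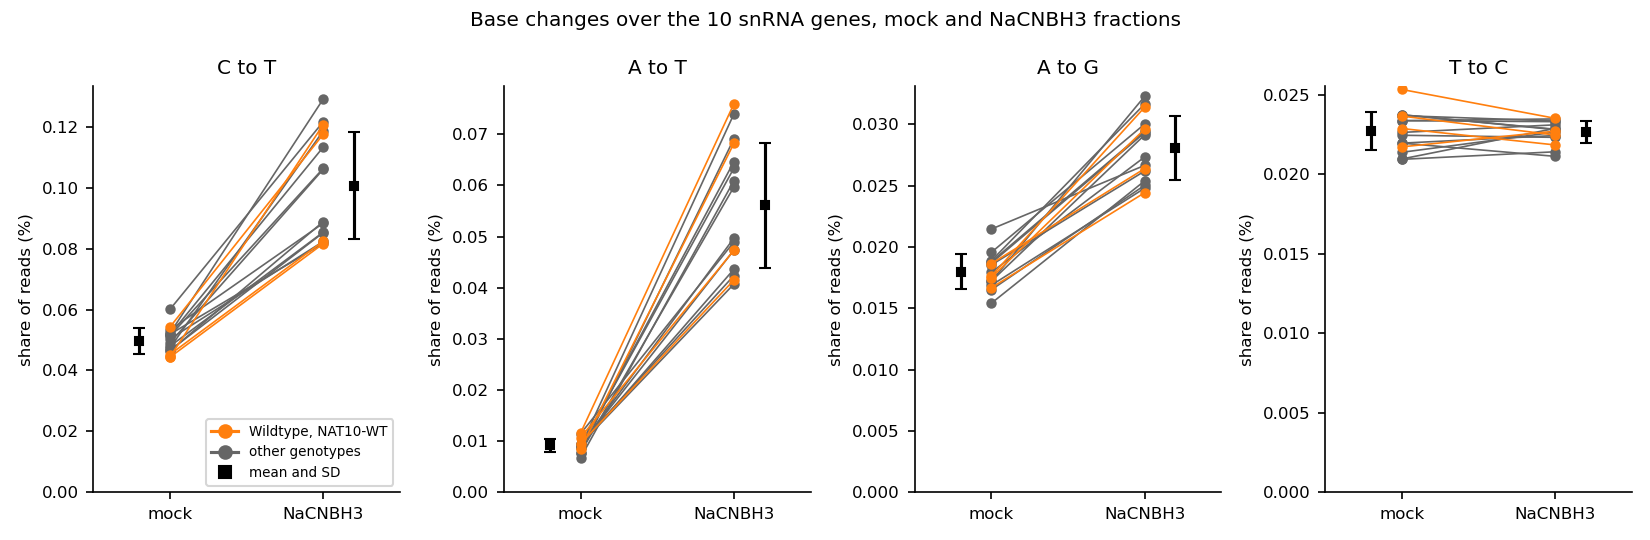
Share of reads (percent) with 4 base changes, averaged over the bases of 10 snRNA genes, in the mock and NaCNBH3 fraction of each genotype and replicate (lines join the 2 fractions, orange for Wildtype and NAT10-WT, grey for the other genotypes, squares give the mean and SD of 16). C to T, A to T and A to G are higher after NaCNBH3 in every pair, T to C is not.

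No difference in these rises between competent and deficient libraries passed the test. The p was 0.70 for C to T and 0.78 for A to T (exact permutation test), with adjusted p of at least 0.712 for all 12 changes. At the 301679 other positions of the series C to T was 2.14 and A to T 5.92 times higher after NaCNBH3. Among the genes, the C-to-T ratio ran from 1.63 in RNU5F-1, higher in 10 of 16 pairs, to 2.62 in RNU5D-1, higher in 16 of 16. The smallest p for a difference between competent and deficient libraries was in RNU5D-1, with rises of 0.0393 and 0.0232 percentage points (exact permutation test, p = 0.0401, adjusted over 10 genes p = 0.401). Without its position 56 the rises were 0.0253 and 0.0209 (exact p = 0.425).

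Single bases were then tested for a higher C-to-T share after NaCNBH3 within a genotype by Fisher's exact test, at shares over 1% and called in both replicates. The test counts the reads of a pair of libraries, so that its p-values cover counting error only. In Wildtype 8.86% of C-to-T positions of any RNA were called, 64 of 722. Among 8 snRNA cytosines tested, 1 was called. This was C74T of RNVU1-7, which rose from 0.763% to 1.41% in replicate 1 and from 0.561% to 1.12% in replicate 2 (adjusted p = 3.50e-08 and 4.76e-08). Over all genotypes its limma response was 0.37 on the log2 odds scale and did not pass (adjusted p = 0.150). It was 0.57 within replicate 1 and 0.17 within replicate 2. Over all changes 3.32% of positions were called, and of 15 snRNA positions the only other one was A70T of RNU1-1, from 1.07% to 1.47% and from 1.15% to 1.35%. At the annotated copy alone A70T was not called (adjusted p = 0.112 and 0.404). In NAT10-WT 11% of C-to-T positions of any RNA were called, 79 of 717, and again 1 of 8 snRNA cytosines. It was C74T of RNU1-1, which moved from 11.3% to 11.7% and from 9.03% to 10.04% (adjusted p = 0.0424 and 7.60e-17), and at the annotated copy alone it was not called. Over all genotypes the share of this base was higher after NaCNBH3 in 10 of 16 pairs. Its limma response was -0.01 on the log2 odds scale and did not pass (adjusted p = 0.940). Over all changes 3.06% of positions were called in NAT10-WT, with A70T of RNU1-1 the other snRNA position, which was not called at the annotated copy alone either (adjusted p = 0.0155 and 0.349).

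With the minimum share at 0.1%, more snRNA cytosines passed. In Wildtype 14 of 58 were called, against 13.3% of all C-to-T positions, and in NAT10-WT 12 of 60, against 12.5%. One of them was C114T of RNU1-1, a deeply read base, which rose from 0.0561% to 0.112% and from 0.0660% to 0.147% in NAT10-WT. For comparison, in the 18S rRNA the ac4C sites C1337 and C1842 had 59.5% to 90.8% T in competent NaCNBH3 libraries and 2.96% to 11.1% in deficient ones.

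The response to NaCNBH3 over all 8 genotypes was fitted by limma at 3071 positions of any RNA with a share over 1%, of which 5.57% were called. Of 15 snRNA positions 1 was called, A70T of RNU1-1. It was 1.06% to 1.65% in mock libraries (median 1.16%) and 1.26% to 1.56% in NaCNBH3 libraries (median 1.35%), so that the groups overlapped. The difference was 0.20 on the log2 odds scale (SE 0.05, adjusted p = 0.0348), with 0.26 within replicate 1 and 0.13 within replicate 2. K290A went the other way, with means of 1.45% in mock and 1.40% in NaCNBH3. The call was lost when any 1 of 14 of the 16 genotype replicates was left out (adjusted p 0.0209 to 0.104 over the 16), and kept only without K290A replicate 2 or E389L replicate 2. It was also lost with the minimum share at 0.1% (adjusted p = 0.184) or with no minimum (0.477).

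At lower shares the same fit called more positions. With a pooled share over 0.1%, 18 of 64 snRNA positions were called, against 16.8% of all positions, and all 18 were higher after NaCNBH3. They were 17 C-to-T positions and A8T of RNU12, the 2′-O-methylated base named above (0.70, SE 0.12, adjusted p = 0.00278). The smallest adjusted p were in RNU11, where C62T rose by 1.22 (SE 0.14, adjusted p = 0.00032), C9T by 1.12 and C56T by 1.30 on the log2 odds scale. With no minimum share 370 of 1105 snRNA positions were called, against 29.8% of all positions. They held 201 of 248 C-to-T, 132 of 154 A-to-T and 25 of 78 A-to-G positions.

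Whether that response differed between NAT10-competent and NAT10-deficient cells was tested in the same limma fit. It called 11 positions of any RNA, 0.358%, and none of the 15 snRNA positions. The 16 middle cytosines of CCG triplets, of which 15 had 30 reads in all libraries, were compared by an exact permutation test of 4 competent against 12 deficient NaCNBH3 libraries. None passed after adjustment over the 15. The test shuffled single libraries, so that replicates of a genotype counted as independent. NAT10 status was set by genotype, and the p-values can therefore be too small. The mean C-to-T share was at most 0.294% in both groups at all of them but C74 of RNU1-1 and of RNVU1-7. C74 of RNVU1-7 had 1.46% in competent and 1.49% in deficient NaCNBH3 libraries (exact permutation test, p = 0.93). C74 of RNU1-1 had 11.4% and 10.4% (exact p = 0.204). Fisher's exact test, which called these cytosines above, was run in the competent genotypes only.

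The smallest p was at C56 of RNU5D-1. In NAT10-WT NaCNBH3 libraries T was read in 36 of 7541 reads in replicate 1, or 0.477% (95% exact interval 0.335% to 0.660%), and in 41 of 8261 in replicate 2, or 0.496% (0.356% to 0.673%). The mock libraries of NAT10-WT had 5 of 5617 reads, or 0.0890%, and 0 of 7323 (upper end of the 95% exact interval 0.0504%). Wildtype NaCNBH3 libraries had 0.0323% and 0.172%, with 9 of 5247 reads in the second. The 12 deficient NaCNBH3 libraries ranged from 0.0599% to 0.183%, so that both NAT10-WT libraries were above all of them and neither Wildtype library was. The mean was 0.294% ± 0.230 (SD, n = 4) in competent and 0.110% ± 0.0404 (SD, n = 12) in deficient libraries, a difference of 0.185 percentage points (exact permutation test over 1820 arrangements, p = 0.0297, adjusted p = 0.445). Without NAT10-WT replicate 1 the difference was 0.124 and without replicate 2 it was 0.117 (exact p = 0.119 for each). Without Wildtype replicate 1 it was 0.272 and passed (exact p = 0.0044, adjusted p = 0.0330), and C69 of RNU5D-1 then passed as well. C69 had 0.0882% ± 0.0378 and 0.0528% ± 0.0274 over all libraries (n = 4 and 12, exact p = 0.0632).

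The same cytosine was read in the other U5 genes. In NaCNBH3 libraries the C-to-T share at position 56 was 0.134% in competent and 0.152% in deficient cells for RNU5A-1, 0.130% and 0.132% for RNU5B-1, and 0.110% and 0.0999% for RNU5E-1. RNU5F-1 had 0.186% and 0.237%, with a range of 0 to 0.745% over single libraries. In limma at the 0.1% minimum the response of C56T of RNU5D-1 over all genotypes was 1.72 (SE 0.43, adjusted p = 0.0183), and its competent-minus-deficient difference was 1.70 (adjusted p = 1.00).

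**Figure D4:**
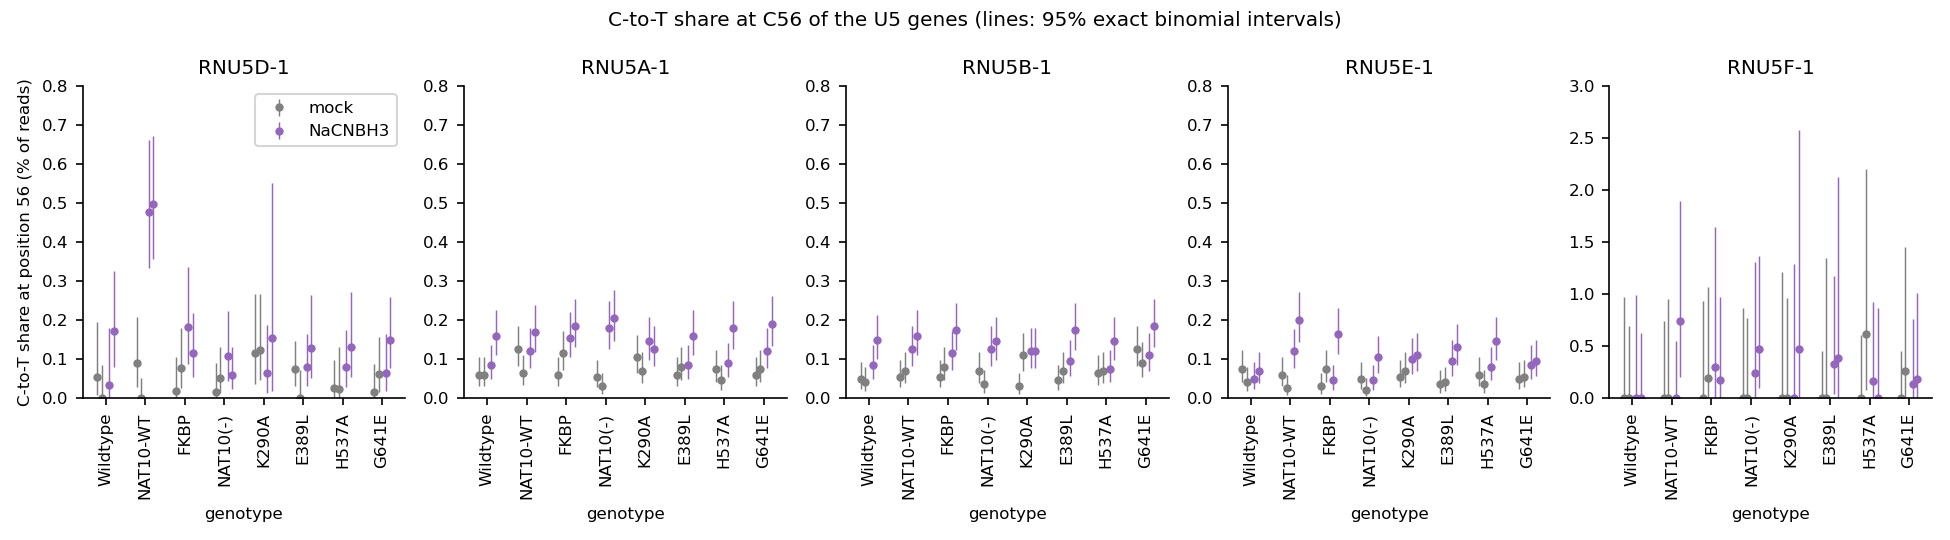
Share of reads with T at position 56 of 5 U5 genes (percent of reads, with a wider scale for RNU5F-1), by genotype, in mock and NaCNBH3 libraries. Points are libraries and lines their 95% exact binomial intervals, which cover counting error only. In RNU5D-1 the NAT10-WT NaCNBH3 libraries sit at 0.477% and 0.496%, above the other 14 NaCNBH3 libraries.

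The level of a mismatch, averaged over both fractions, was compared between competent and deficient cells. Of 3071 positions of any RNA 6.28% were called, and of 15 snRNA positions 1 was, G16A of RNU1-1. It ran from 1.98% to 3.01% in the 4 competent mock libraries (median 2.38%) and from 1.16% to 2.11% in the 12 deficient ones (median 1.91%). Wildtype was the highest genotype, with 2.60% and 3.01% in its mock libraries, and K290A the lowest, with 1.16% and 1.21%. NAT10-WT, with 2.16% and 1.98%, overlapped H537A, with 2.11% and 1.91%. The difference was 0.47 on the log2 odds scale (SE 0.09, adjusted p of limma 0.0143), with 0.50 within replicate 1 and 0.44 within replicate 2. It lost the threshold without either replicate of Wildtype or of NAT10-WT (adjusted p 0.0067 to 0.0776 over the 16 left out in turn). With more positions in the fit it was not called either, at a 0.1% minimum (adjusted p = 0.368, 1.01% of positions called) or with no minimum (0.0983% called). Between helicase and acetyltransferase mutants 0.261% of positions were called and no snRNA position.

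Depth, as a measure of how much of an RNA was read, could be compared for 5 of the 10 genes, those with at least 20 positions below the ceiling in every library: RNU1-1, RNVU1-7, RNU5D-1, RNU5F-1 and RNU12. RNU5A-1, RNU5B-1, RNU5E-1 and RNU11 had 3 to 14 such positions and RNU2-1 was read through copies, and their depth is not compared here. The depth of RNU1-1 was taken at its annotated copy alone, 1 of 9 identical copies. Values are mean depths summed over both fractions and scaled by TMM in edgeR, given as CPM of the summed depth, over 865 gene records. In bulk RNA, less of an RNA per cell and fewer cells that hold it cannot be told apart.

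Between competent and deficient cells edgeR called 1.39% of gene records and none of the 5 snRNA genes. Between NAT10(-) and NAT10-WT it called 0 of 865 (0% of records, 0 also at an unadjusted p under 0.05, and 0 by DESeq2). Between NaCNBH3 and mock it called 1.16% and none of the snRNA genes.

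Between helicase mutants and acetyltransferase mutants, RNU5F-1 and RNU5D-1 were lower in the helicase mutants. RNU5F-1 had 113 and 205 CPM in the 2 replicates of K290A and 355 and 334 in the libraries labelled E389L, against 617 and 608 in H537A and 651 and 597 in G641E. The groups did not overlap. The other genotypes lay between 252 and 496, with E389L inside that range, K290A below it and H537A and G641E above it. RNU5F-1 was 1.40 lower on the log2 scale in the helicase than in the acetyltransferase mutants (adjusted p of edgeR 0.00626), with -1.66 within replicate 1 and -1.20 within replicate 2. RNU5D-1, the other variant U5 gene below the ceiling, had 1767 and 1943 in K290A and 4353 and 6082 in E389L, against 6813 and 7048 in H537A and 4806 and 8360 in G641E. Here E389L overlapped G641E, and the other genotypes lay between 2834 and 7603, with Wildtype (2834 and 3359) and FKBP (3392 and 4133) below E389L. RNU5D-1 was 1.12 lower in the helicase than in the acetyltransferase mutants (adjusted p = 0.0367), with -1.04 and -1.16 within the replicates. These 2 of 5 genes stood against 1.04% of gene records called in either direction and 0.925% called lower.

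The other 3 genes had values of the same sign and did not pass: -0.89 for RNVU1-7 (adjusted p = 0.269), -0.80 for RNU1-1 (0.226) and -0.50 for RNU12 (0.317). The median over the 5 genes was -0.89 and over all 865 records 0.08. With the replicate number as a block, 41 gene records and 3 of the snRNA genes were called, with RNU1-1 at -0.81 added (adjusted p = 0.0463). DESeq2 called 7.05% of gene records and the same number of snRNA genes, 2.

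The difference was larger with K290A alone. With K290A as the only helicase mutant, a comparison chosen after the data were seen, RNU5F-1 was 1.96 lower (adjusted p = 0.00144) and RNU5D-1 1.86 lower (0.00432) than in the acetyltransferase mutants, with 7.98% of gene records called. With E389L as the only one, 0 records were called (0%, 40 at an unadjusted p under 0.05), with -0.84 for RNU5F-1 (adjusted p = 0.6002) and -0.37 for RNU5D-1 (0.975). The K290A libraries included the deepest and the broadest of all, with 1458.3 to 1732 Mb of base calls and 1050459 to 3797803 positions, against 1209.9 to 1424.5 Mb and 400284 to 752639 positions in the acetyltransferase mutants. The part of this in the result was not tested. Scaled to total base calls instead of TMM, the median of all gene records moved from 0.08 to 0.71, RNU5F-1 was at -0.80 (adjusted p = 0.0909) and RNU5D-1 at -0.50 (0.0980), and no record was called. The RNU5D-1 call was lost when any 1 of 11 of the 16 genotype replicates was left out (adjusted p 0.0365 to 0.194 over the 16). It was also lost with second records of a gene left out (adjusted p = 0.0570, 1.16% of records called) or with genes that touched the ceiling left out (0.0655, 0.616%). RNU5F-1 kept its call with any 1 of the 16 left out (adjusted p 0.00139 to 0.0431), with second records left out and with genes at the ceiling left out.

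**Figure D5:**
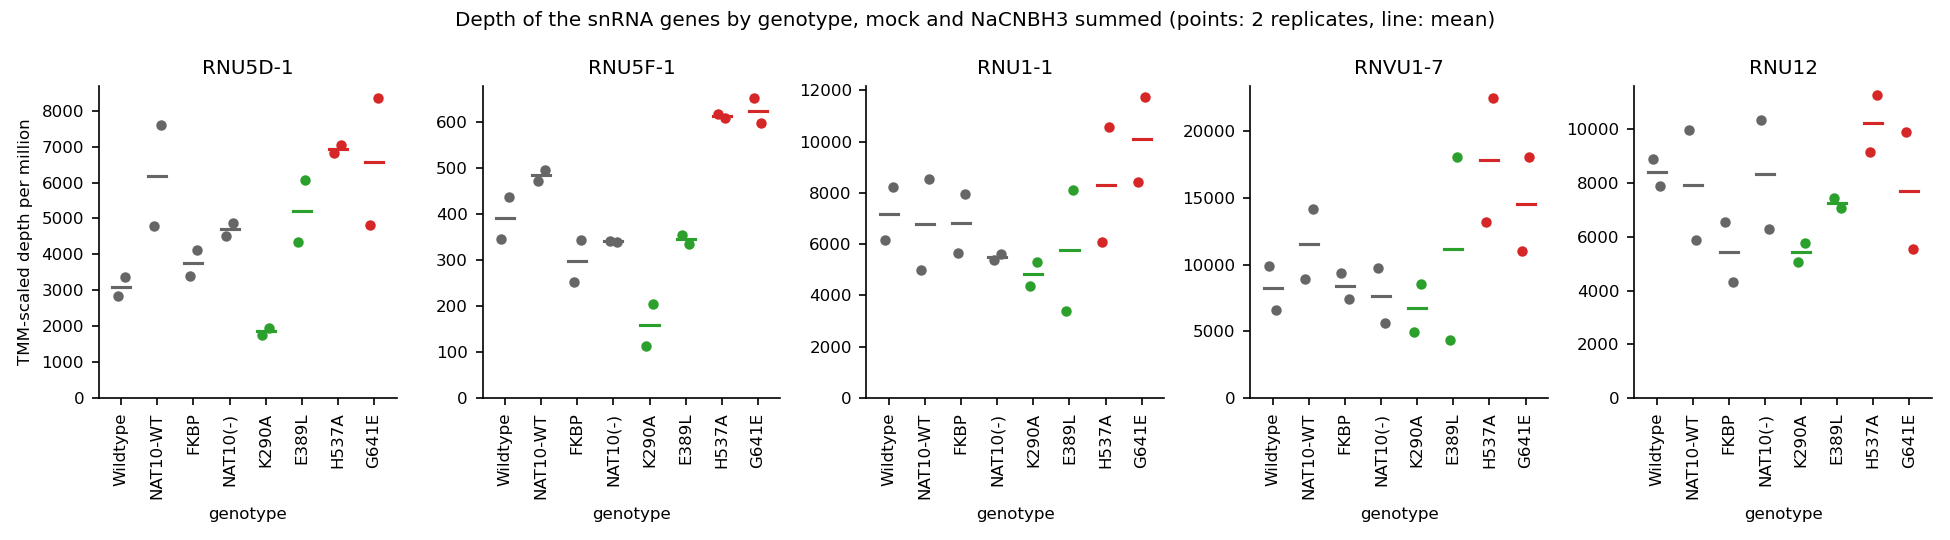
TMM-scaled depth (CPM of the summed depth) of 5 snRNA genes by genotype, with mock and NaCNBH3 fractions summed. Points are the 2 replicates and lines their mean, green for helicase mutants (K290A, E389L), red for acetyltransferase mutants (H537A, G641E) and grey for the rest. RNU5F-1 is lowest in K290A, at 113 and 205, and highest in the acetyltransferase mutants, at 597 to 651.

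Genes of the same pathway gave no call in any of the 4 depth comparisons. These were other snRNAs, 8 tested of 18 listed, the scaRNAs that guide snRNA modification, 20 of 26, and proteins of the snRNPs, 3 of 19. Between helicase and acetyltransferase mutants the medians were -0.69, 0.02 and 0.51 on the log2 scale, against 0.08 over all records. RNU6-1, the catalytic U6 snRNA, had -1.27 (adjusted p = 0.243), RNU2-2P -0.96 and RNU4-2, the partner of U6, -0.80. SCARNA8 had -1.001 (0.208). SF3B2, a subunit of the U2 snRNP, had 0.78 (0.0701) and was called with the replicate block (0.79, adjusted p = 0.0345).

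Depth also changed in steps along single snRNAs. In RNU5D-1 it fell between positions 102 and 103 to 0.385 of its level, with a range of 0.277 to 0.607 over 32 libraries. In RNU11 it rose 2.17-fold between positions 5 and 6 (2.04 to 2.43), and in RNU12 it fell to 0.142 between positions 149 and 150 (0.0725 to 0.297). RNU1-1 rose 2.25-fold between its first and second base. These steps were present in every library of every genotype.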

How the data were processed

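The deposited files hold, for each of the 32 libraries, counts of A, C, G and T at each position of the genome that 30 reads or more covered. According to the methods, the authors trimmed reads, extracted molecular identifiers, aligned to GRCh38, removed duplicates by identifier and took base counts per strand from pileups. Tool versions in the submitters' processing notes are STAR 2.7.9a, SAMtools 1.6, cutadapt 4.2 and UMI-tools 1.1.5, for the last of which the methods give a later version. How reads with several equally good places were treated is not given in the sources used here. The counts are raw. Intervals and limits cover counting error only.

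Exons came from GENCODE 44. Identical copies were summed for base counts, and the depth of a gene was taken at its annotated copy alone. The U5 sequences are not reported here. Members, gene lists and tests were chosen with earlier results of these data known. Mismatch and depth were compared with Fisher's exact test, limma 3.58.1 on log2 odds (0.5 added to each count), edgeR 4.0.16 quasi-likelihood tests, exact permutation tests (SciPy 1.17.1) and, as an alternative, DESeq2 1.42.0, all under R 4.3.3 or Python 3.11.15, with Benjamini-Hochberg adjustment over all positions or gene records tested and a threshold of 0.05. Fisher tests needed a share over 1% from 5 mismatch reads or more, with 30 reads or more in each fraction. Limma needed 30 reads in all 32 libraries and a pooled share over 1%, and edgeR 20 positions per gene that stayed below 19000 reads in every library. The shares over 12 base changes left out bases with a mean mismatch of 0.5% or more. Where no T was read, the limit is 3 reads of the depth.

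Named positions were up to 3 per gene with the highest mismatch over 1%, all listed modified bases, the middle C of every CCG, and positions called by a test. Depth is named for all members and, from the lists, for called genes and the 3 with the largest change. The listed modified bases were taken from general knowledge of human snRNAs, and those of RNU5F-1 at bases 1 and 2, which have other letters there, were left out. The labels give the replicate number as a batch, so that the numbers pair the genotypes. Deviations of same-numbered genotypes correlated at -0.19 to 0.56 over 28 pairs (median 0.31, 23 above 0.1). The tests were fitted without the replicate as a block, and with it as an alternative. The exact permutation tests shuffled single libraries or pairs of fractions, not whole genotypes. Alternatives also covered the minimum share, scaling, single copies, other tools and each replicate left out. No library was a copy of its replicate. On simulated data of 3071 positions limma recovered 90 of 100 changed by 1 log2 unit, with 9 false calls. In the helicase comparison edgeR recovered 190 of 200 genes changed by 1 log2 unit among 865 simulated, with 5 false calls. Fisher's exact test recovered 161 of 200 cytosines raised to 5% among 20000 simulated, with 0 false calls. The limma simulation gave all positions the same spread between libraries and the edgeR simulation all genes the same dispersion. The Fisher simulation held counting error only. These rates therefore do not give the power of the tests on the real libraries.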

Additional observations from a re-analysis of the deposited data

Results flagged for a closer look

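The response of C56T of RNU5D-1 to NaCNBH3 differed between NAT10-competent and NAT10-deficient genotypes by an exact permutation test of the NaCNBH3 share minus the mock share (4 against 12 pairs of fractions, difference 0.199 percentage points, exact p = 0.0187). After adjustment over the 15 CCG cytosines compared it did not pass (adjusted p = 0.280). The test took replicates of a genotype as independent, so that its p-values can be too small. The NAT10-WT NaCNBH3 libraries had 0.477% and 0.496%, and Wildtype, the other competent genotype, had 0.0323% and 0.172% in NaCNBH3 libraries.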

How the results depend on the processing

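Over 26 results, 526 alternatives were computed. Of these, 372 kept their side of the threshold or stayed within 1.5 times of a count, 33 gained a call or rose past that, and 121 lost one or fell past it. The 5 single positions and genes followed, A70T and G16A of RNU1-1, C56T of RNU5D-1 and the depth of RNU5D-1 and RNU5F-1, turned in direction under 0 of them, and counts have no direction. The cause was not tested for any of them. With the minimum share at 0.1%, C-to-T calls among snRNA cytosines went from 1 to 14 in Wildtype and from 1 to 12 in NAT10-WT, NaCNBH3 response calls from 1 to 18 and calls between competent and deficient levels from 1 to 0. With no minimum share the last 2 were 370 and 0. With the annotated copy alone the NAT10-WT calls went from 1 to 0. For depth between helicase and acetyltransferase mutants, the 2 calls became 0 with total base calls in place of TMM, 0 with limma on log2 depth, 1 with genes at the ceiling left out, 1 with second records of a gene left out and 0 with E389L as the only helicase mutant, the last 3 chosen after seeing the data. Gene records called in that comparison were 9, and 61 with DESeq2 (17 higher and 44 lower, against 1 and 8), 5 without genes at the ceiling, 1 with limma, 69 with K290A as the only helicase mutant and 0 with E389L as the only one. Between competent and deficient cells 12 were called, and 61 with DESeq2 (34 higher and 27 lower, against 11 and 1) and 0 with total base calls or limma. With the replicate block, calls over all positions or records were 223 for the NaCNBH3 response, 19 for its difference between competent and deficient cells, 265 and 31 for the 2 level comparisons, and 28, 41 and 0 for depth. Among the snRNA genes the block added the depth call of RNU1-1 and changed no other call, and at C56 of RNU5D-1 it gave an exact p of 0.0383. Without the block of paired fractions, 3 records in place of 10 were called between NaCNBH3 and mock, and with DESeq2 20 (8 higher and 12 lower, against 6 and 4). Leaving out each replicate gave 1 to 2 snRNA calls in Wildtype, 1 to 3 in NAT10-WT, 0 to 1 for the NaCNBH3 response, 0 to 1 for the competent level, 1 to 2 for the helicase depth and 0 to 2 for the CCG cytosines, and 0 to 0 for the other comparisons of snRNA positions or genes. Shares in RNU5F-1 and RNU2-1 rest on few reads, and the ceiling kept RNU5A-1, RNU5B-1, RNU5E-1 and RNU11 out of the depth tests.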
